A study of Danio rerio with 18 samples.

Results

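The comparison described here is the warm shift in LPS-exposed zebrafish larvae, that is, whole larvae moved from 24 °C to 32 °C before exposure (24 × 32 LPS) against larvae kept at 24 °C throughout (24 × 24 LPS). It takes in 6 of the 18 RNA-seq libraries, which by their labels are the LPS libraries of larvae incubated at 24 °C, and it covers every gene of the count table. The 24 × 32 LPS group holds 3 libraries of AB strain larvae incubated at 24 °C to the first-feeding stage and challenged at 32 °C. The 24 × 24 LPS group holds 3 libraries of AB larvae incubated at 24 °C to the same stage and challenged at 24 °C. Both were immersed for 24 h in LPS of Pseudomonas aeruginosa, so exposure and incubation temperature are common to them and only the challenge temperature differs by label. The dose is 10 mg per litre by the sample labels, whereas the methods give the same figure in micrograms per litre. The 24 × 32 and 24 × 24 controls (3 libraries each) had the same temperatures and phosphate-buffered saline in place of LPS. Their warm shift is the comparison set beside the LPS one and shares no library with it. Each library is a pool of 5 whole larvae that were alive at sampling, so every tissue is mixed, and a smaller number of cells of a type cannot be told apart from less RNA per cell. Larvae at the higher temperature may also have been further developed, which the design cannot tell apart from temperature itself. By the paper, more larvae died after LPS at the warmer challenge temperature than at the cooler one, and few died in the controls. The pools of the LPS groups were thus drawn from unequal shares of survivors, which also goes with challenge temperature. The effect of this on the level of any gene was not tested.

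LPS is a lipid-linked sugar polymer that coats Gram-negative bacteria, and animals sense it as a sign of bacterial infection. Fish take on the temperature of their water, so a warm shift alters the folding of proteins and the rate of most processes in every tissue. Cells answer protein misfolding in the cytosol through heat shock factor 1, which raises the transcription of the Hsp70, Hsp90 and Hsp40 chaperones and of Serpinh1, the collagen chaperone of the endoplasmic reticulum. Genes known from cold acclimation, such as cold-inducible RNA-binding protein, are usually expressed more at the lower end of the temperature range. In the study the question behind these groups was how rearing and challenge temperature affect the response of the larvae to LPS.

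The 24 × 32 LPS libraries held 1868228, 2825333 and 2390260 counts and the 24 × 24 LPS libraries 6679159, 5689632 and 2088918, so the 24 × 24 LPS larvae were sequenced more deeply in 2 of 3 libraries. The control libraries held 2405212 to 2897261 counts at 24 × 32 and 5075072 to 8261920 at 24 × 24. The common biological coefficient of variation, the replicate spread beyond counting error, was 19.7% within the 24 × 32 LPS group and 12.4% within the 24 × 24 LPS group. Replicate 2 of the 24 × 32 LPS group stood apart from the others. Its log2 levels correlated at 0.934 and 0.915 with those of replicates 1 and 3, which correlated at 0.951 with each other, whereas the 24 × 24 LPS libraries correlated at 0.965 to 0.981.

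Of 31624 genes in the table, 15722 passed the filter on low counts and were tested. The warm shift in LPS-exposed larvae gave 486 differentially expressed genes (DEGs, edgeR quasi-likelihood test, Benjamini-Hochberg adjusted p under 0.05 and fold change of at least 1.5), which is 3.09% of the genes tested. In 24 × 32 LPS larvae 254 genes were up-regulated (1.62%) and 232 were down-regulated (1.48%). The log2 fold changes were 0.59 to 4.14 for the up-regulated genes (median 0.97) and -4.96 to -0.59 for the down-regulated ones (median -0.87), and the median over all genes tested was 0.03. All 3 libraries of the 24 × 32 LPS group lay above all 3 of the 24 × 24 LPS group for 246 of the 254 up-regulated genes, and below them for 231 of the 232 down-regulated genes. Over all genes tested, 11.9% lay wholly above and 12.2% wholly below. The count of DEGs moved with single libraries. It was 215 without 24 × 24 LPS replicate 1 and 233 without 24 × 24 LPS replicate 2, against 370, 391 and 586 without 24 × 32 LPS replicates 1, 2 and 3. Every one of the 486 DEGs kept its sign in all 6 of these fits, and 157 (72 up- and 85 down-regulated) were called in each of them.

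**Figure D1:**
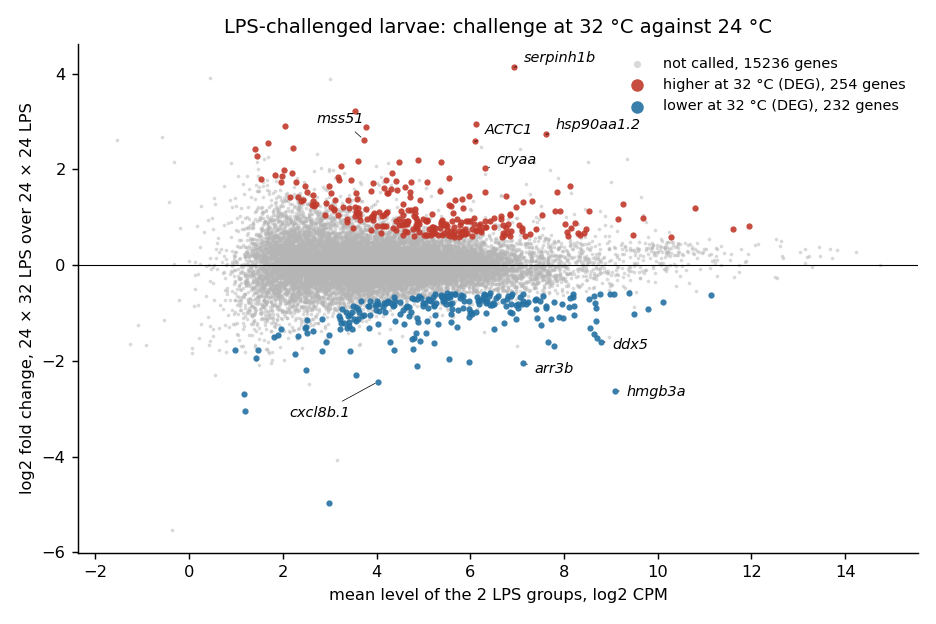
Log2 fold change of 24 × 32 LPS over 24 × 24 LPS larvae (vertical axis) against the log2 of the mean CPM of the 6 libraries (horizontal axis) for each of the 15722 genes tested, one point per gene. The 254 up- and 232 down-regulated genes are coloured, the other 15236 are grey, and serpinh1b stands at the top with a log2 fold change of 4.14.

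The steepest rises included genes of protein folding and muscle, and the steepest falls included genes of chromatin, vision and olfaction. Levels below are in CPM, which is the count divided by the scaled library total, and they are compared between libraries for one gene, not between genes. Counts of called members of gene lists stand beside 1.62% up- and 1.48% down-regulated among all genes tested. Among the 10 largest rises was mss51, a gene of mitochondria and muscle, with 26.2, 27.3 and 15.9 CPM in the 24 × 32 LPS libraries, against 3.53, 4.97 and 1.54 CPM in the 24 × 24 LPS libraries. The lowest 24 × 32 LPS value was above the highest 24 × 24 LPS value, and the log2 fold change was 2.62 (standard error 0.30, edgeR adjusted p = 2.25e-05). Another, calcoco1b, named for calcium-binding and coiled-coil domains, had 76.1, 35 and 90.8 CPM in 24 × 32 LPS and 12.7, 10.4 and 25.7 CPM in 24 × 24 LPS libraries (log2 fold change 2.17, standard error 0.36, edgeR adjusted p = 0.00236). Replicate 2 was its lowest 24 × 32 LPS library and still lay above the 24 × 24 LPS larvae.

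Among the 10 largest falls, the odorant receptor gene or125-4 had 3.49, 4.23 and 4.41 CPM in the 24 × 32 LPS libraries, against 26.3, 19.3 and 12.8 CPM in the 24 × 24 LPS libraries (log2 fold change -2.30, standard error 0.40, edgeR adjusted p = 0.00213). The 24 × 32 LPS libraries were close together and all below the scattered 24 × 24 LPS libraries. Levels of lancl1, which encodes a glutathione-binding LanC-like protein, were 12.8, 6.53 and 9.70 CPM in 24 × 32 LPS and 32.2, 34.8 and 28.8 CPM in 24 × 24 LPS libraries (log2 fold change -1.77, standard error 0.21, edgeR adjusted p = 3.44e-05). The calls of mss51, calcoco1b, or125-4 and lancl1 held without each of the 6 libraries.

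Many cytosolic heat shock chaperones rose and none was called down-regulated. Of 59 members found, 56 were tested, 14 were up-regulated, none was down-regulated, and 42 did not pass the test. The log2 fold change was positive in 47 and negative in 9 of the 56. At an unadjusted p under 0.05 by edgeR, 26 were positive and 1 negative, against 10.5% and 8.85% of all genes tested. All 24 × 32 LPS libraries lay below all 24 × 24 LPS libraries in 3 members and above them in 28, against 12.2% and 11.9% of all genes tested. The median log2 fold change of the 56 was 0.54, against 0.03 over all genes tested. Their summed level was 14066, 14950 and 12134 CPM in the 24 × 32 LPS libraries and 8168, 8763 and 8236 CPM in the 24 × 24 LPS libraries, with no overlap. The count of called members was 9 without 24 × 24 LPS replicate 1, 19 without 24 × 32 LPS replicate 3 and 13 without 24 × 32 LPS replicate 2.

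The Hsp90 and Hsp70 genes made the largest steps among these chaperones. For hsp90aa1.2, an inducible Hsp90 gene, the 24 × 32 LPS libraries had 472, 309 and 247 CPM and the 24 × 24 LPS libraries 52.0, 52.6 and 48.8 CPM. The 24 × 24 LPS larvae were nearly level and every 24 × 32 LPS library was several times above them (log2 fold change 2.74, standard error 0.21, edgeR adjusted p = 1.25e-07). Its paralog hsp90aa1.1, the Hsp90 that folds myosin in zebrafish muscle fibres, had 212, 89.5 and 71.9 CPM in the 24 × 32 LPS libraries, against 20.9, 13.2 and 11.8 CPM in the 24 × 24 LPS libraries (log2 fold change 2.95, standard error 0.47, edgeR adjusted p = 0.00302). Replicate 1 was far above the other 24 × 32 LPS libraries, and without it the log2 fold change was 2.34. The call ended in an edgeR fit of only the 5 libraries left without 24 × 32 LPS replicate 2 (adjusted p = 0.11). These copies are alike in sequence, so reads may have been split between them.

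The gene listed as HSPA8 (ENSDARG00000037403), an Hsp70 family member, had 30.8, 17.7 and 14.1 CPM in 24 × 32 LPS and 1.84, 1.71 and 4.11 CPM in 24 × 24 LPS libraries. All 24 × 32 LPS libraries were higher (log2 fold change 3.21, standard error 0.38, edgeR adjusted p = 3.23e-05). The inducible Hsp70 gene hsp70l, named after its values were seen, had 54.6, 19.6 and 17.2 CPM in 24 × 32 LPS and 7.49, 3.77 and 10.8 CPM in 24 × 24 LPS libraries. Its groups did not overlap, but the spread among libraries was wide and it did not pass the test (log2 fold change 2.13, standard error 0.98, edgeR adjusted p = 0.259).

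Partners of Hsp70 and Hsp90 also rose. For dnaja4, an Hsp40 protein that hands substrates to Hsp70, the 24 × 32 LPS libraries had 78.5, 37.3 and 29.5 CPM and the 24 × 24 LPS libraries 9.61, 11.3 and 9.76 CPM (log2 fold change 2.2, standard error 0.45, edgeR adjusted p = 0.0149). For hsph1, an Hsp110 protein that exchanges the nucleotide of Hsp70, the values were 26.2, 7.30 and 9.26 CPM in 24 × 32 LPS and 3.39, 4.28 and 3.60 CPM in 24 × 24 LPS libraries (log2 fold change 1.84, standard error 0.37, edgeR adjusted p = 0.00604). Replicate 1 was the highest 24 × 32 LPS library for both, and without it the log2 fold change of hsph1 was 1.12 and not called. The calls of hsph1 and dnaja4 also ended without 24 × 24 LPS replicate 1, and that of dnaja4 without 24 × 24 LPS replicate 2. The Hsp90 partner fkbp4, a peptidyl-prolyl isomerase, had 198, 142 and 133 CPM in 24 × 32 LPS and 62.2, 54.3 and 57.0 CPM in 24 × 24 LPS libraries, and its call held without each library (log2 fold change 1.44, standard error 0.17, edgeR adjusted p = 2.31e-05).

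Smaller steps were measured for HSP90AB1 and cct2. HSP90AB1, the Hsp90 that cells make at all times, had 3895, 4712 and 3092 CPM in 24 × 32 LPS and 2124, 2560.3 and 2252 CPM in 24 × 24 LPS libraries (log2 fold change 0.75, standard error 0.16, edgeR adjusted p = 0.00905). A subunit of the chaperonin that folds actin and tubulin, cct2, had 54.6, 65.3 and 46.7 CPM in 24 × 32 LPS and 29.0, 31.2 and 26.2 CPM in 24 × 24 LPS libraries (log2 fold change 0.94, standard error 0.20, edgeR adjusted p = 0.012). Both were highest in 24 × 32 LPS replicate 2, both were named after their values were seen, and both calls ended without that library or without 24 × 24 LPS replicate 1 (edgeR adjusted p = 0.0523 to 0.0632).

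In mitochondria, 3 of 16 tested chaperones and proteases were up-regulated (against 1.62% of all genes tested), with a median log2 fold change of 0.24. These were LONP1, a protease of the matrix, HSPD1, the Hsp60 chaperonin, and DNAJA3, a mitochondrial Hsp40. HSPD1 had 187, 195 and 131 CPM in 24 × 32 LPS and 112, 105 and 93.0 CPM in 24 × 24 LPS libraries (log2 fold change 0.72, standard error 0.16, edgeR adjusted p = 0.0143). All 24 × 32 LPS libraries were higher, by a small margin. Each of these 3 calls ended without 24 × 32 LPS replicate 1 or 2 or 24 × 24 LPS replicate 2, and also without 24 × 24 LPS replicate 1 for LONP1 and DNAJA3 or replicate 3 for HSPD1. None of the 16 members was called without 24 × 24 LPS replicate 2 or without 24 × 32 LPS replicate 2.

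The collagen chaperone genes serpinh1a and serpinh1b rose, and genes of cartilage collagens fell. Serpinh1 (Hsp47), a chaperone that binds procollagen in the endoplasmic reticulum, rose in both its zebrafish copies. For serpinh1b the levels were 346, 210.2 and 146 CPM in the 24 × 32 LPS libraries, against 18.2, 12.5 and 5.65 CPM in the 24 × 24 LPS libraries, the largest rise of any up-regulated gene (log2 fold change 4.14, standard error 0.56, edgeR adjusted p = 0.00109). The lowest 24 × 32 LPS library was well above the highest 24 × 24 LPS library. In an edgeR fit of the 5 libraries without 24 × 32 LPS replicate 2 the gene was not called (adjusted p = 0.0638). For serpinh1a they were 58.7, 45 and 52.5 CPM in 24 × 32 LPS libraries and 15.4 CPM in each 24 × 24 LPS library (log2 fold change 1.75, standard error 0.22, edgeR adjusted p = 4.78e-05).

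Of 22 tested members of the collagen chaperone and procollagen processing list, 4 were up-regulated and 3 down-regulated (median log2 fold change -0.02). With the serpinh1 copies rose p4ha2, a prolyl 4-hydroxylase subunit that stabilises the collagen helix, with 26.2, 21.5 and 22.1 CPM in 24 × 32 LPS and 7.21, 7.02 and 6.68 CPM in 24 × 24 LPS libraries (log2 fold change 1.71, standard error 0.25, edgeR adjusted p = 0.000299). CRTAP, a partner of the prolyl 3-hydroxylase that modifies fibrillar collagens, fell to 23.2, 13.5 and 18.1 CPM in 24 × 32 LPS libraries, against 40.7, 40.6 and 41.6 CPM in 24 × 24 LPS libraries (log2 fold change -1.19, standard error 0.17, edgeR adjusted p = 0.000341). Neither gene overlapped between the groups. The enhancer of procollagen C-terminal cleavage, pcolcea, also fell (log2 fold change -1.30, standard error 0.24, edgeR adjusted p = 0.00313).

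Of 30 tested collagen chains, 8 were down-regulated and none up-regulated, with a median log2 fold change of -0.31, and those with the largest falls are chains of cartilage. The type IX chain col9a1b had 257, 212 and 177 CPM in the 24 × 32 LPS libraries, against 501, 647 and 597 CPM in the 24 × 24 LPS libraries (log2 fold change -1.43, standard error 0.17, edgeR adjusted p = 3.44e-05). The type XI chain col11a2 had 127, 108 and 90 CPM in 24 × 32 LPS and 267, 258 and 241 CPM in 24 × 24 LPS libraries (log2 fold change -1.24, standard error 0.13, edgeR adjusted p = 3.92e-06). In both, the highest 24 × 32 LPS library was below the lowest 24 × 24 LPS library. The type IX chain col9a3 had 212, 213 and 159 CPM in 24 × 32 LPS and 391, 435 and 372 CPM in 24 × 24 LPS libraries, and the type II chain listed as COL2A1 (ENSDARG00000069093) had 932, 820.2 and 688 CPM in 24 × 32 LPS and 1255, 1509.9 and 1399.5 CPM in 24 × 24 LPS libraries. Their log2 fold changes were -1.04 and -0.77. The summed level of the chains was 6304, 7867 and 5330 CPM in 24 × 32 LPS and 8706, 8548 and 7894 CPM in 24 × 24 LPS libraries, where replicate 2 of the 24 × 32 LPS larvae came close to the 24 × 24 LPS larvae. The number of chains called was 4 without 24 × 32 LPS replicate 3 and 9 without 24 × 32 LPS replicate 2.

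Other cartilage genes fell with the collagens. In the list of fin fold, cartilage and bone genes, 8 of 44 tested members were down-regulated and 1 was up-regulated (median log2 fold change -0.19). The cartilage glycoprotein lect1 (chondromodulin) had 59.3, 55.3 and 41.5 CPM in 24 × 32 LPS and 124, 143 and 126 CPM in 24 × 24 LPS libraries (log2 fold change -1.34, standard error 0.15, edgeR adjusted p = 2.08e-05). The matrilins matn1 and MATN4, which link matrix fibres, had log2 fold changes of -1.13 and -0.81. The member that rose was prg4b, a lubricin gene of joint surfaces, with 22.1, 18.4 and 25.1 CPM in 24 × 32 LPS and 6.50, 8.56 and 7.19 CPM in 24 × 24 LPS libraries (log2 fold change 1.55, standard error 0.29, edgeR adjusted p = 0.00297). Of the 13 collagen and cartilage genes named, all 13 calls held without each single library of the comparison in the fit of all groups.

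Some members of the cold acclimation list and several genes of RNA-binding proteins were lower in the 24 × 32 LPS larvae. Of 18 tested members of the cold list, 5 were down-regulated and none up-regulated, although the median of the list was only -0.10, and the count was 5 without each of the 6 libraries. The other 13 members were not called. The log2 fold change was positive in 7 of the 18, up to 1.24, and in 1 of them at an unadjusted p under 0.05 by edgeR. The list as a whole thus had no common direction. The chromatin protein gene hmgb3a had the largest fall of the list, with 139, 136 and 179 CPM in the 24 × 32 LPS libraries, against 952, 887 and 961 CPM in the 24 × 24 LPS libraries (log2 fold change -2.62, standard error 0.13, edgeR adjusted p = 1.08e-10). Libraries of one group were close together and the groups were far apart. Its relative hmgb1a, which bends DNA like the other proteins with HMG boxes, had 214, 188 and 252 CPM in 24 × 32 LPS and 588, 489.7 and 541 CPM in 24 × 24 LPS libraries (log2 fold change -1.31, standard error 0.13, edgeR adjusted p = 3.92e-06). The other copies, hmgb1b and hmgb3b, had log2 fold changes of -1.12 and -0.97. The cold-inducible RNA-binding protein gene cirbpa had 458, 490.0 and 486 CPM in 24 × 32 LPS and 1043, 979 and 883 CPM in 24 × 24 LPS libraries (log2 fold change -1.02, standard error 0.14, edgeR adjusted p = 0.000126). Here too the groups did not overlap.

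Splicing factors leaned the same way, with 8 of 92 tested members down-regulated, 1 up-regulated and a median log2 fold change of -0.20. The RNA helicase gene ddx5 had 249, 149 and 259 CPM in 24 × 32 LPS and 698, 689.9 and 593 CPM in 24 × 24 LPS libraries (log2 fold change -1.59, standard error 0.16, edgeR adjusted p = 3.92e-06). The RNA-binding protein genes ewsr1b and hnrpdl had log2 fold changes of -1.08 and -0.91. The exception was hnrnpa3, a nuclear ribonucleoprotein, with 37.2, 33.1 and 27.8 CPM in 24 × 32 LPS and 12.3, 9.59 and 10.8 CPM in 24 × 24 LPS libraries (log2 fold change 1.57, standard error 0.30, edgeR adjusted p = 0.00513). Each of these 4 calls held without any single library. The summed level of the 92 members was 11060, 8435 and 10672 CPM in 24 × 32 LPS and 12699, 11904 and 11468 CPM in 24 × 24 LPS libraries, lowest in 24 × 32 LPS replicate 2. Of the 92 members, 4 were called without 24 × 24 LPS replicate 1 and 5 without 24 × 32 LPS replicate 2.

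**Figure D2:**
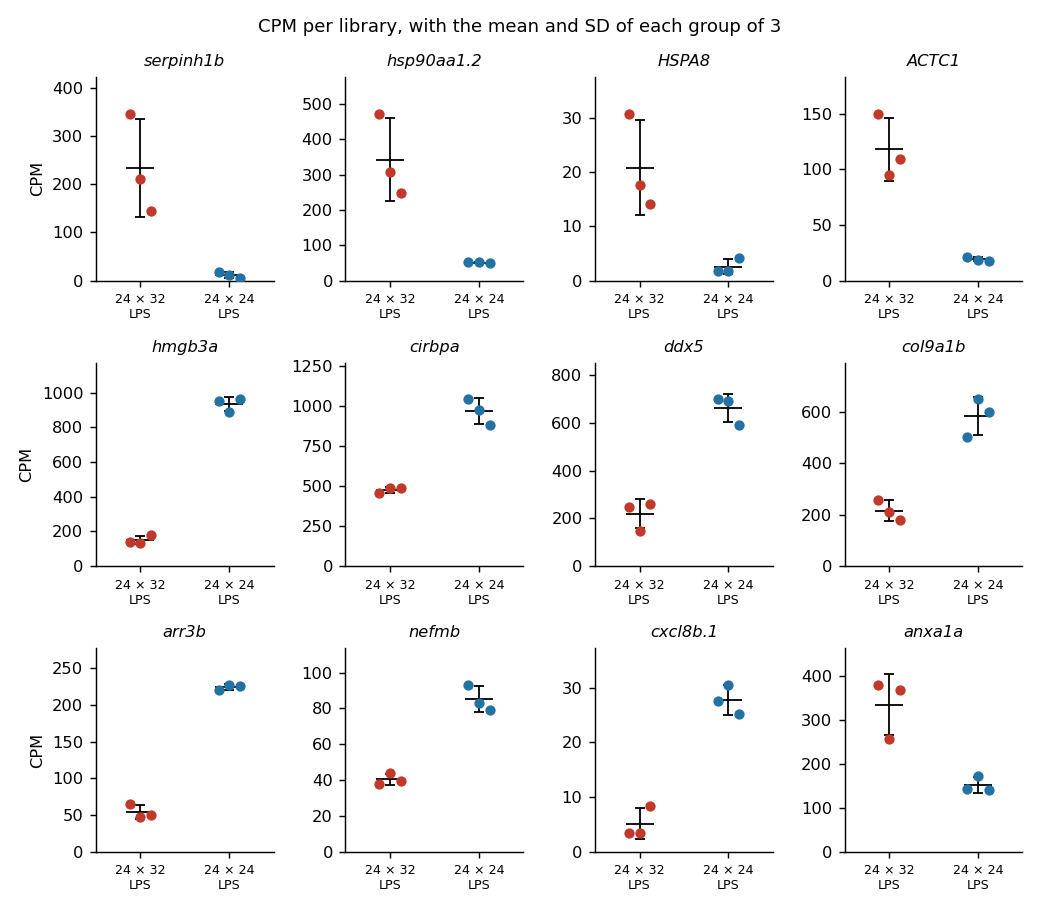
CPM of 12 named genes in each library of the 24 × 32 LPS (left) and 24 × 24 LPS (right) groups, one panel per gene and one point per library, with the group mean and standard deviation. In all 12 panels the points of the groups do not overlap, with serpinh1b at 146 to 346 CPM in 24 × 32 LPS and 5.65 to 18.2 CPM in 24 × 24 LPS larvae, and hmgb3a at 136 to 179 CPM in 24 × 32 LPS and 887 to 961 CPM in 24 × 24 LPS larvae.

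Cytosolic ribosomal protein genes were higher in nearly every case, but by little. Of 83 tested genes 79 had a positive log2 fold change, with a median of 0.34, and 68 lay above all 24 × 24 LPS libraries in every 24 × 32 LPS library, against 11.9% of all genes tested. Only RPL13A and RPL22L1, proteins of the large subunit, were called up-regulated. RPL13A had 1375, 1598 and 1521 CPM in 24 × 32 LPS and 974, 1023 and 968 CPM in 24 × 24 LPS libraries (log2 fold change 0.60, standard error 0.11, edgeR adjusted p = 0.00331). It stood just over the fold change threshold and was under it without 24 × 24 LPS replicate 3 or 24 × 32 LPS replicate 2 or 3, and the call of RPL22L1 ended without 24 × 24 LPS replicate 1 or 3 or 24 × 32 LPS replicate 3. The summed level of the 83 genes was 107468, 111090 and 113499 CPM in 24 × 32 LPS and 85014, 88630 and 92426 CPM in 24 × 24 LPS libraries, without overlap.

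Genes of ribosome biogenesis, which act in the nucleolus before the ribosome is complete, went the other way. Of 76 tested members 8 were down-regulated and none up-regulated, the median log2 fold change was -0.19, and 28 lay below all 24 × 24 LPS libraries, against 12.2% of all genes tested. Genes of the particle that pseudouridylates ribosomal RNA were among them. The gene gar1 had 61.6, 59.6 and 59.5 CPM in 24 × 32 LPS and 109, 104 and 89.4 CPM in 24 × 24 LPS libraries (log2 fold change -0.75, standard error 0.15, edgeR adjusted p = 0.00516), and dkc1 had 22.7, 27.3 and 30 CPM in 24 × 32 LPS and 46.4, 47.1 and 50.3 CPM in 24 × 24 LPS libraries (log2 fold change -0.83, standard error 0.17, edgeR adjusted p = 0.00905). Both were clear of overlap and held without each library. The number of members called was 2 without 24 × 24 LPS replicate 2 and 3 without 24 × 32 LPS replicate 2.

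In muscle more genes rose than fell, and some genes of energy supply fell. Of 93 tested skeletal muscle genes (median log2 fold change 0.19), 8 were up-regulated and 3 down-regulated, against 1.62% and 1.48% of all genes tested. The up-regulated ones include hsp90aa1.1 and hsp90aa1.2. The summed level was 158224, 160052 and 153186 CPM in 24 × 32 LPS and 123617, 140231 and 153300 CPM in 24 × 24 LPS libraries, so that 24 × 24 LPS replicate 3 overlapped with the 24 × 32 LPS larvae. The actin gene listed as ACTC1, named for the cardiac form, had 149.9, 94.5 and 109 CPM in 24 × 32 LPS and 21.5, 18.5 and 18.0 CPM in 24 × 24 LPS libraries (log2 fold change 2.58, standard error 0.24, edgeR adjusted p = 3.34e-06). The 24 × 32 LPS libraries were several times above the 24 × 24 LPS ones. The skeletal actin gene acta1a, named after its values were seen, had 773, 832 and 650.5 CPM in 24 × 32 LPS and 354, 400.3 and 400.1 CPM in 24 × 24 LPS libraries (log2 fold change 0.97, standard error 0.17, edgeR adjusted p = 0.00258). Actin genes are alike in sequence and may share reads.

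The calcium-handling genes did not all move one way. The calcium pump gene atp2a1l, which returns calcium to the sarcoplasmic reticulum, had 2419.8, 2638 and 2311 CPM in 24 × 32 LPS and 776, 1075 and 1369.7 CPM in 24 × 24 LPS libraries (log2 fold change 1.2, standard error 0.21, edgeR adjusted p = 0.00349), and cacna1sb, a subunit of the voltage sensor of muscle, had a log2 fold change of 1.24. Calsequestrin casq2, which stores calcium and was named after its values were seen, had 46.5, 50.7 and 41.9 CPM in 24 × 32 LPS and 82.1, 93.7 and 100.2 CPM in 24 × 24 LPS libraries (log2 fold change -0.98, standard error 0.15, edgeR adjusted p = 0.0005). A myosin-binding protein, mybpha, fell as well (log2 fold change -1.80, standard error 0.37, edgeR adjusted p = 0.00742).

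Among genes of energy supply, ckmt2a, a creatine kinase of muscle mitochondria, had 60.4, 74.9 and 55.1 CPM in 24 × 32 LPS and 170.2, 126 and 142 CPM in 24 × 24 LPS libraries (log2 fold change -1.2, standard error 0.20, edgeR adjusted p = 0.00114). The fructose bisphosphatase of muscle, fbp2, had 11.0, 17.3 and 18.1 CPM in 24 × 32 LPS and 36.9, 49.7 and 38.0 CPM in 24 × 24 LPS libraries (log2 fold change -1.41, standard error 0.23, edgeR adjusted p = 0.00107). Both were below all 24 × 24 LPS libraries in every 24 × 32 LPS library. The median log2 fold change of 101 tested subunits of oxidative phosphorylation was -0.06, close to that of all genes. Of these, 4 were down-regulated and none up-regulated, against 1.48% and 1.62% of all genes tested. One was atp5g1, a gene of the membrane ring of ATP synthase, with 138, 148 and 124 CPM in 24 × 32 LPS and 271, 249 and 240.3 CPM in 24 × 24 LPS libraries (log2 fold change -0.89, standard error 0.12, edgeR adjusted p = 0.000161). Cytochrome c gene cycsb, the electron carrier, had a log2 fold change of -0.78. The number of subunits called was 2 without 24 × 32 LPS replicate 1 and 7 without 24 × 24 LPS replicate 1 or 24 × 32 LPS replicate 3. The 10 muscle and energy genes named here kept their calls without each library.

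In the eye, cone arrestin and recoverin genes fell and a lens chaperone gene rose. Of 67 tested photoreceptor genes (median log2 fold change -0.13), 8 were down-regulated and 2 up-regulated, against 1.48% and 1.62% of all genes tested. The cone arrestin gene arr3b, whose protein switches off activated cone opsin, had 65.7, 46.9 and 50.7 CPM in 24 × 32 LPS and 220.3, 227 and 225 CPM in 24 × 24 LPS libraries. The 24 × 24 LPS larvae were level and the 24 × 32 LPS larvae all far below (log2 fold change -2.05, standard error 0.15, edgeR adjusted p = 4.37e-08). Its paralog arr3a had a log2 fold change of -1.17. The calcium sensor gene rcvrn3, a recoverin, had 245, 225 and 176 CPM in 24 × 32 LPS and 630.1, 614 and 600.4 CPM in 24 × 24 LPS libraries (log2 fold change -1.51, standard error 0.14, edgeR adjusted p = 2.62e-06). Both up-regulated members are of the visual cascade. The green cone opsin gene opn1mw2 had 16.3, 17.3 and 15 CPM in 24 × 32 LPS and 6.64, 8.90 and 6.68 CPM in 24 × 24 LPS libraries (log2 fold change 1.11, standard error 0.31, edgeR adjusted p = 0.0471). The gene pde6g, for the inhibitory subunit of a phosphodiesterase, had 40.7, 48.0 and 54.7 CPM in 24 × 32 LPS and 29.0, 22.6 and 33.4 CPM in 24 × 24 LPS libraries (log2 fold change 0.79, standard error 0.19, edgeR adjusted p = 0.0223). The groups overlapped in neither gene. The call of opn1mw2 ended without each of the 6 libraries (edgeR adjusted p = 0.0607 to 0.186) and that of pde6g without 24 × 24 LPS replicate 1 or 2 or 24 × 32 LPS replicate 2 or 3 (edgeR adjusted p = 0.0626 to 0.139). The number of photoreceptor genes called was 3 without 24 × 24 LPS replicate 2 and at most 5 without any other single LPS library of the comparison.

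Of 40 tested lens crystallins 3 were up-regulated (against 1.62% of all genes tested), with a median log2 fold change of 0.11. One was cryaa, an alpha-crystallin, which is a small heat shock protein of the lens, with 112, 123 and 149 CPM in 24 × 32 LPS and 29.1, 30.8 and 35.4 CPM in 24 × 24 LPS libraries (log2 fold change 2.02, standard error 0.20, edgeR adjusted p = 3.92e-06). The number of crystallins called was 1 without 24 × 24 LPS replicate 1 or 2 or 24 × 32 LPS replicate 3, and near-identical gamma-crystallins may share reads.

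Of 58 tested neuron markers (median log2 fold change -0.18), 5 were down-regulated and none up-regulated, against 1.48% and 1.62% of all genes tested. The medium neurofilament genes nefmb and nefma, which give axons their calibre, were among them. For nefmb the values were 37.8, 43.8 and 39.7 CPM in 24 × 32 LPS and 93.1, 83.2 and 79.1 CPM in 24 × 24 LPS libraries (log2 fold change -1.07, standard error 0.17, edgeR adjusted p = 0.000929), and for nefma 63.9, 72.6 and 52.9 CPM in 24 × 32 LPS and 115, 111 and 112 CPM in 24 × 24 LPS libraries (log2 fold change -0.84, standard error 0.14, edgeR adjusted p = 0.00154). The summed level of the 58 markers was 7456, 8260 and 8180 CPM in 24 × 32 LPS and 9464, 9057 and 9630 CPM in 24 × 24 LPS libraries, without overlap. Without 24 × 24 LPS replicate 1, 2 or 3 or without 24 × 32 LPS replicate 1, 2 of the markers were called.

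Of 44 tested clock genes (median log2 fold change 0.04), 1 was up-regulated and 4 were down-regulated, against 1.62% and 1.48% of all genes tested. However, none was called without 24 × 24 LPS replicate 2 or 24 × 32 LPS replicate 2. The repressor gene per3 had 102, 117 and 93.5 CPM in 24 × 32 LPS and 53.3, 39 and 75 CPM in 24 × 24 LPS libraries (log2 fold change 0.93, standard error 0.21, edgeR adjusted p = 0.016). Its call ended also without 24 × 24 LPS replicate 1 and in an edgeR fit of the 5 libraries without 24 × 32 LPS replicate 2 (adjusted p = 0.06). The melatonin enzyme gene of the pineal gland, aanat2, was low throughout, with 1.74, 0.769 and 0.882 CPM in 24 × 32 LPS and 3.39, 5.14 and 4.11 CPM in 24 × 24 LPS libraries (log2 fold change -1.94, standard error 0.50, edgeR adjusted p = 0.0314). Its call ended without each single LPS library of the comparison except 24 × 32 LPS replicate 1. The cryptochrome gene cry4 (log2 fold change -0.74, standard error 0.19, edgeR adjusted p = 0.036) lost its call without each single LPS library of the comparison.

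Few inflammatory genes passed the test. Of 94 cytokine, chemokine and signalling genes found, 50 passed the filter, with a median log2 fold change of -0.02. Of the 50, 2 were down-regulated and none up-regulated, against 1.48% and 1.62% of all genes tested. The down-regulated share was above that of all genes, but it rests on 2 genes. The chemokine gene cxcl8b.1, which draws neutrophils, had 3.49, 3.46 and 8.38 CPM in the 24 × 32 LPS libraries, against 27.6, 30.5 and 25.2 CPM in the 24 × 24 LPS libraries. The groups were far apart (log2 fold change -2.43, standard error 0.52, edgeR adjusted p = 0.0142). In the controls its levels were low at both temperatures, with at most 1.49 CPM at 24 × 32 and 1.15, 2.09 and 6.11 CPM at 24 × 24. The control log2 fold change of cxcl8b.1 was negative too, at -1.77, and not called (edgeR adjusted p = 0.219). Its difference between the warm shifts did not pass the test (-0.66, edgeR adjusted p = 0.916). The cytokine signalling inhibitor gene socs3b had 31.4, 25.8 and 34 CPM in 24 × 32 LPS and 48.9, 84.6 and 91.9 CPM in 24 × 24 LPS libraries (log2 fold change -1.29, standard error 0.26, edgeR adjusted p = 0.00914). Its control log2 fold change was -0.67 and not called (edgeR adjusted p = 0.137). Without 24 × 24 LPS replicate 2 neither gene was called and the list held no DEG. The call of cxcl8b.1 also ended without 24 × 32 LPS replicate 1 or 2 (edgeR adjusted p = 0.0551 to 0.0675 over the 3 libraries), and that of socs3b ended in an edgeR fit of the 5 libraries without 24 × 32 LPS replicate 2 (adjusted p = 0.0503).

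Other genes of the acute response showed wide spread among the 24 × 32 LPS pools. The cytokine gene il1b, named after its values were seen, had 6.39, 2.69 and 27.8 CPM in 24 × 32 LPS and 34.6, 39.2 and 28.2 CPM in 24 × 24 LPS libraries and did not pass the test (log2 fold change -1.48, standard error 0.54, edgeR adjusted p = 0.143). Replicate 3 of the 24 × 32 LPS larvae reached the level of the 24 × 24 LPS larvae, and the same library was highest for both metallopeptidases. The collagenase gene mmp13a had 14.5, 6.53 and 36.6 CPM in 24 × 32 LPS and 59.4, 91.3 and 72.4 CPM in 24 × 24 LPS libraries (log2 fold change -1.96, standard error 0.47, edgeR adjusted p = 0.0332). With single LPS libraries of the comparison left out, its call held only without 24 × 32 LPS replicate 3, where the log2 fold change was -2.90. It ended without any other of these libraries and in the fit of the 5 libraries (edgeR adjusted p = 0.0649). The gelatinase gene mmp9, also named after its values were seen, had 72.6, 27.3 and 84.2 CPM in 24 × 32 LPS and 118, 237 and 233 CPM in 24 × 24 LPS libraries and was not called (log2 fold change -1.68, standard error 0.46, edgeR adjusted p = 0.0619). In the controls mmp9 was down-regulated, with 9.33, 3.84 and 6.71 CPM at 24 × 32 and 15.2, 38.3 and 45.1 CPM at 24 × 24. The control log2 fold change was -2.32 (edgeR adjusted p = 0.032), so mmp9 was lower at 32 °C without LPS too. The control log2 fold changes of il1b and mmp13a were -0.50 and -0.85, neither called.

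The transglutaminase gene tgm2l, whose protein crosslinks others, had 16.3, 5.77 and 11.9 CPM in 24 × 32 LPS and 25.4, 68.0 and 47.8 CPM in 24 × 24 LPS libraries. The groups did not overlap (log2 fold change -2.10, standard error 0.40, edgeR adjusted p = 0.00585), and the call ended in edgeR fits of the 6 libraries alone (adjusted p = 0.0648, or 0.144 with a replicate block) and of the 5 libraries without 24 × 32 LPS replicate 2 (adjusted p = 0.219). In controls tgm2l had 8.58, 6.53 and 7.67 CPM at 24 × 32 and 6.54, 9.69 and 11.6 CPM at 24 × 24. Only the 24 × 24 LPS libraries thus stood above the controls as a group. The difference between the warm shifts did not pass the test (-1.79, edgeR adjusted p = 0.509). Whole larvae also hold neutrophils and macrophages. Of 21 tested neutrophil markers 1 was down-regulated, namely mmp13a. A negative log2 fold change at an unadjusted p under 0.05 was found in 8 and a positive one in 1, against 8.85% and 10.5% of all genes tested, and 8 lay wholly below the 24 × 24 LPS libraries, against 12.2% of all genes. Their sum was 644, 656 and 830 CPM in 24 × 32 LPS and 696, 984 and 928 CPM in 24 × 24 LPS libraries, which overlap. The median log2 fold change of the neutrophil markers was -0.20 in LPS larvae and -0.50 in controls. In the controls 4 of the 21 were down-regulated, against 3.2% of all genes tested. Of 27 tested macrophage markers edgeR called none, 2 had a positive and 0 a negative log2 fold change at an unadjusted p under 0.05, and the other settings called 0 to 2. Their sum was 1723, 1866 and 2086 CPM in 24 × 32 LPS and 1098, 1236 and 1226 CPM in 24 × 24 LPS libraries, without overlap. Most of this sum in the 24 × 32 LPS libraries came from 1 gene, apoeb, an apolipoprotein E gene. It had 1008, 1071 and 1244 CPM in 24 × 32 LPS and 530.1, 522 and 559 CPM in 24 × 24 LPS libraries, and so made up most of the gap in the sum. The groups did not overlap but the gene was not called (log2 fold change 1.04, standard error 0.38, edgeR adjusted p = 0.155). The part of unequal survival in these levels was not tested.

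Skin genes were in part higher in 24 × 32 LPS than in 24 × 24 LPS larvae. Of 68 tested skin barrier genes 7 were up-regulated and none down-regulated (median log2 fold change 0.14), and of 19 tested keratins 4 were up-regulated and none down-regulated (median 0.48). The annexin A1 genes, which bind membranes in a calcium-dependent way, were prominent. Levels of anxa1a were 379, 255 and 368 CPM in 24 × 32 LPS and 143, 173 and 139 CPM in 24 × 24 LPS libraries (log2 fold change 1.13, standard error 0.18, edgeR adjusted p = 0.001), and those of anxa1b were 200.5, 176 and 304 CPM in 24 × 32 LPS and 98.7, 83.9 and 87.3 CPM in 24 × 24 LPS libraries (log2 fold change 1.33, standard error 0.20, edgeR adjusted p = 0.000383). Neither overlapped, and both calls held without each library. For anxa1c the values were 25.6, 26.1 and 37.5 CPM in 24 × 32 LPS and 7.07, 12.2 and 11.3 CPM in 24 × 24 LPS libraries (log2 fold change 1.59, standard error 0.32, edgeR adjusted p = 0.00807), a call that ended without 24 × 24 LPS replicate 1. Control levels of anxa1c were 22.8, 29.2 and 20.6 CPM at 24 × 32 and 19.2, 23.7 and 25.2 CPM at 24 × 24. Only its 24 × 24 LPS libraries were thus low. In controls anxa1a and anxa1b were called up-regulated as well (log2 fold changes 1.13 and 0.89). The annexin A1 copies lie close in sequence and may share reads.

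The ceramidase gene acer1, which acts on lipids of the epidermal barrier in mammals, had 30.8, 14.6 and 53.4 CPM in 24 × 32 LPS and 10, 9.42 and 9.24 CPM in 24 × 24 LPS libraries (log2 fold change 1.76, standard error 0.35, edgeR adjusted p = 0.00684). Replicate 3 was its highest library and without it the gene was not called. The calcium-binding gene s100w had a log2 fold change of 1.11 (SE 0.22, edgeR adjusted p = 0.00512). Of the keratins, which form the filaments of epithelial cells, krt15 had 434, 401 and 439 CPM in 24 × 32 LPS and 149.8, 143 and 109 CPM in 24 × 24 LPS libraries (log2 fold change 1.66, standard error 0.24, edgeR adjusted p = 0.000516). For krt1-19d the levels were 58.1, 83.4 and 77.6 CPM in 24 × 32 LPS and 18.4, 24.8 and 18.0 CPM in 24 × 24 LPS libraries (log2 fold change 1.83, standard error 0.39, edgeR adjusted p = 0.0188), and krt94 had a log2 fold change of 1.08. The call of krt1-19d ended without any 24 × 24 LPS library or without 24 × 32 LPS replicate 2. Yet the summed keratin level overlapped between the groups, with 10692, 15306 and 11373 CPM in 24 × 32 LPS and 12763, 8554 and 6047 CPM in 24 × 24 LPS libraries. Without 24 × 24 LPS replicate 1 the number of called members was 4 of 68 for the skin barrier list and 2 of 19 for the keratins, and 24 × 24 LPS replicate 2 and 24 × 32 LPS replicate 2 had the same effect on the keratins.

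Ionocyte transporters, which move salts and ammonia across the skin, had a median log2 fold change of 0.13 over 43 tested members. Of these, 3 were up-regulated and none down-regulated, against 1.62% and 1.48% of all genes tested. One was rhbg, an ammonia channel, with 292, 321 and 420.3 CPM in 24 × 32 LPS and 138, 135 and 82.7 CPM in 24 × 24 LPS libraries (log2 fold change 1.53, standard error 0.21, edgeR adjusted p = 0.000305). The groups were clearly separate and the call held without each library, whereas only 1 member of the list was called without 24 × 24 LPS replicate 1 or 2.

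The LPS warm shift was then set beside the warm shift of control larvae, which asks whether temperature had the same effect with and without LPS. The control warm shift gave 976 DEGs (6.21% of the genes tested), of which 473 were up-regulated (3.01%) and 503 down-regulated (3.2%). Of the DEGs, 211 were called in both with the same direction (118 up- and 93 down-regulated), and 1 was called in opposite directions, so 43.4% of the LPS list and 21.6% of the control list were shared in direction. The shared count was 107 without 24 × 24 LPS replicate 1 and 117 without 24 × 24 LPS replicate 2. Genes called only in the LPS larvae numbered 274 and those called only in the controls 764. Of the 254 genes up-regulated in LPS larvae 236 had a positive fold change in the controls as well (median log2 fold change 0.63), and of the 232 down-regulated ones 218 had a negative one (median -0.56). Across the 15722 genes tested the log2 fold changes of both warm shifts correlated at 0.458 (Pearson) and 0.422 (Spearman), a description across genes, which are not independent replicates. The count of control DEGs was 400 without 24 × 24 control replicate 3 and 525 to 599 without any other single control library.

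**Figure D3:**
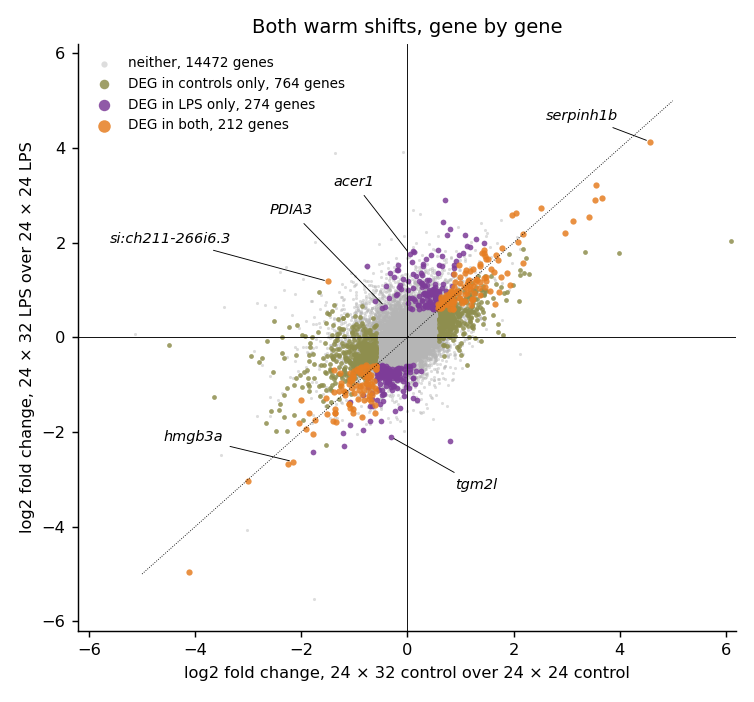
Log2 fold change of the warm shift in LPS larvae (vertical axis) against that in control larvae (horizontal axis), one point per gene tested, coloured by the warm shift in which the gene was called. The 212 genes called in both lie along the diagonal with 1 exception, 274 were called only in LPS larvae, 764 only in controls and 14472 in neither.

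Several genes with large changes above changed in the controls too. The log2 fold changes in LPS larvae and in controls were 4.14 and 4.57 for serpinh1b, 2.74 and 2.52 for hsp90aa1.2, 3.21 and 3.56 for HSPA8 (ENSDARG00000037403), 2.58 and 1.98 for ACTC1, 2.02 and 2.08 for cryaa, -2.62 and -2.16 for hmgb3a, -1.02 and -1.24 for cirbpa, and -2.05 and -1.78 for arr3b. All 8 were called in each warm shift. Others were called only in LPS larvae. The neurofilament gene nefmb had 56.4, 65.6 and 65.7 CPM in 24 × 32 controls and 74.3, 74.4 and 66.5 CPM in 24 × 24 controls, a log2 fold change of -0.20 against -1.07 in LPS larvae. For krt1-19d it was 0.11 in controls against 1.83 in LPS larvae, for anxa1c 0.09 against 1.59, and for acer1 0.05 against 1.76. In none of these 4 genes did the difference itself pass the test (edgeR adjusted p = 0.378 to 0.544), so they are not shown to differ between the warm shifts.

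By list, cytosolic heat shock chaperones had a median log2 fold change of 0.54 in LPS larvae and 0.46 in controls, where 17 of the 56 were up-regulated. Counts of called members in controls stand beside 3.01% up- and 3.2% down-regulated among all genes tested. Collagen chains had medians of -0.31 in LPS larvae and -0.32 in controls, with 8 of 30 down-regulated in each, and ribosomal proteins 0.34 in LPS larvae and 0.36 in controls. Endoplasmic reticulum chaperones had a median of 0.14 in LPS larvae and -0.44 in controls over 48 tested members. Cholesterol synthesis had 0.17 in LPS larvae and -0.75 in controls over 39 members, and DNA replication and cell cycle genes 0.03 in LPS larvae and -0.42 in controls over 100. Proteasome subunits, with medians of -0.06 in LPS larvae and -0.39 in controls over 49, and liver secreted proteins, with 0.38 in LPS larvae and -0.17 in controls over 75, also had the higher median in LPS larvae. Other lists had the higher median in controls. Lens crystallins had 0.11 in LPS larvae and 0.65 in controls over 40 members, of which 10 were up-regulated in controls and 39 had a negative difference (LPS minus control). Skeletal muscle genes had 0.19 in LPS larvae and 0.45 in controls over 93, neuron markers -0.18 in LPS larvae and 0.03 in controls over 58, and photoreceptor genes -0.13 in LPS larvae and 0.05 in controls over 67. The differences of neuron markers were negative in 45 of 58 and those of photoreceptor genes in 50 of 67. The median difference over all genes tested was 0.02. No single gene of the lens, skeletal muscle, neuron or photoreceptor lists had a difference called by edgeR.

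**Figure D4:**
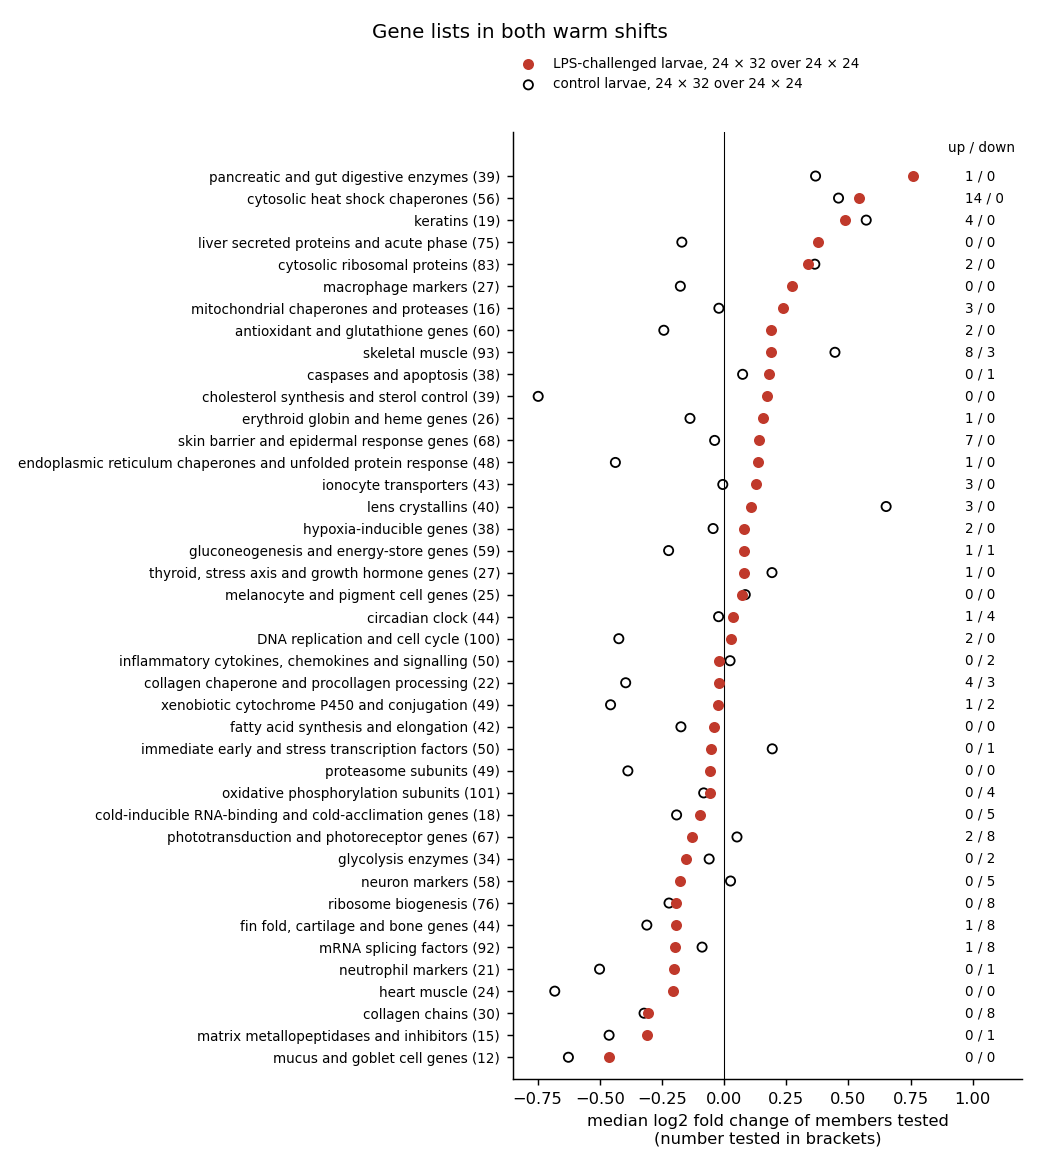
Median log2 fold change of the tested members of each of 41 gene lists in the warm shift of LPS larvae and of control larvae, with the numbers of up- and down-regulated members in LPS larvae beside each list. Pancreatic and gut digestive enzymes (0.76 in LPS larvae, 0.37 in controls) and cytosolic heat shock chaperones (0.54 in LPS larvae, 0.46 in controls) have the highest medians in LPS larvae, and endoplasmic reticulum chaperones lie at 0.14 in LPS larvae and -0.44 in controls.

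The test of the difference between both warm shifts (LPS minus control) called 1 of the 15722 genes (0.00636%) by edgeR, while 1186 genes had an unadjusted p under 0.05, 714 of them positive (4.54%) and 472 negative (3%). DESeq2 on all 18 libraries called 28. The gene called was PDIA3, a thiol oxidoreductase that folds glycoproteins in the endoplasmic reticulum together with calnexin and calreticulin. Its levels in LPS larvae were 184, 206 and 181 CPM at 24 × 32 and 112, 125 and 128 CPM at 24 × 24, and in controls 126, 99.4 and 118 CPM at 24 × 32 and 147, 153 and 160.0 CPM at 24 × 24. It was thus higher at 32 °C in LPS larvae and lower at 32 °C in controls, without overlap in either. The log2 fold change was 0.65 in LPS larvae (edgeR adjusted p = 0.0022) and -0.42 in controls (edgeR adjusted p = 0.0278), and the difference was 1.07 (standard error 0.16, edgeR adjusted p = 0.0281). Leaving out single libraries of both warm shifts gave differences of 0.97 to 1.14 and adjusted p values of 0.0389 to 0.156, and the call was kept only without 24 × 32 control replicate 1 or without 24 × 32 LPS replicate 1. In the LPS warm shift itself, the fold change of PDIA3 was under 1.5 without 24 × 32 LPS replicate 2.

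Several partners of PDIA3 had the same arrangement of levels, and their differences passed the test in some fits only. Of these, calr3a and pdia4 were named for the small p of this difference, so their arrangement follows from that choice. CANX (calnexin), named after its values were seen, had 332, 364 and 342 CPM in 24 × 32 LPS and 244, 263 and 247 CPM in 24 × 24 LPS libraries, with 174, 195 and 204 CPM in 24 × 32 controls and 248, 251 and 268 CPM in 24 × 24 controls (difference 0.88, standard error 0.18, edgeR adjusted p = 0.138). The calreticulin gene calr3a had 148, 126 and 127 CPM in 24 × 32 LPS and 102, 103 and 93.0 CPM in 24 × 24 LPS libraries, with 66.8, 82.9 and 90.6 CPM in 24 × 32 controls and 112, 113 and 151 CPM in 24 × 24 controls. The isomerase gene pdia4 had 47.1, 45 and 48.5 CPM in 24 × 32 LPS and 36.2, 38.4 and 26.2 CPM in 24 × 24 LPS libraries, with 26.1, 26.5 and 23.5 CPM in 24 × 32 controls and 44.8, 39 and 67.6 CPM in 24 × 24 controls. In all 3 genes the 24 × 32 LPS libraries lay above and the 24 × 32 controls below their 24 × 24 counterparts, and the differences of calr3a and pdia4 were 1.07 and 1.44 (edgeR adjusted p = 0.138 for both). The differences of CANX, calr3a and pdia4 were called by DESeq2 on all 18 libraries (adjusted p = 0.00204 for CANX, 0.00616 for calr3a and 0.00739 for pdia4) and by edgeR on the 12 libraries of both warm shifts (adjusted p = 0.0203 for CANX, 0.0431 for calr3a and 0.0445 for pdia4). None of the 3 was called by edgeR when a single library was left out. In the LPS warm shift itself edgeR called none of these genes either. The adjusted p was 0.119 for calr3a and 0.22 for pdia4, and CANX (adjusted p = 0.0433) was under the fold change threshold.

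**Figure D5:**
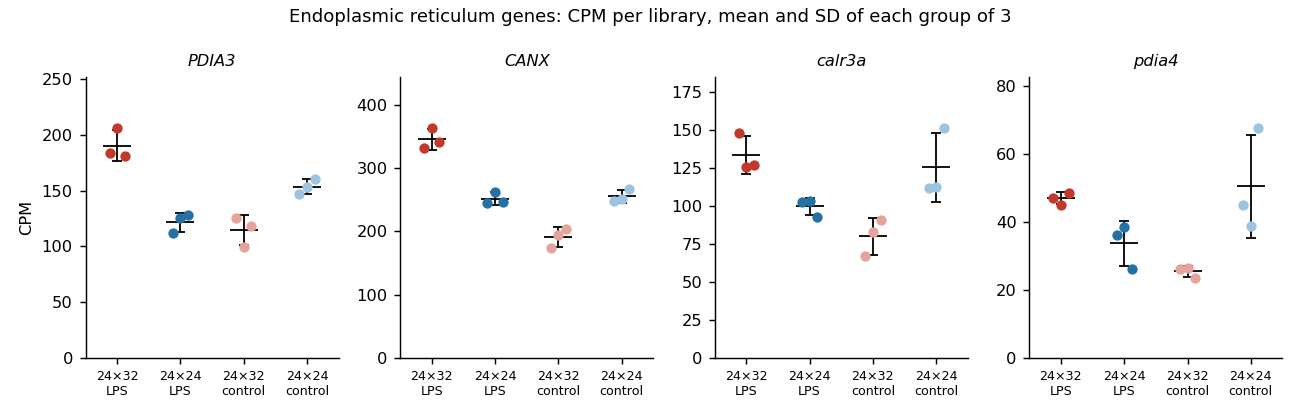
CPM of PDIA3, CANX, calr3a and pdia4 in each library of the 24 × 32 LPS, 24 × 24 LPS, 24 × 32 control and 24 × 24 control groups, with the group mean and standard deviation. In each panel the 24 × 32 LPS points lie above the 24 × 24 LPS points and the 24 × 32 control points lie below the 24 × 24 control points, as for PDIA3 with 181 to 206 CPM in 24 × 32 LPS and 112 to 128 CPM in 24 × 24 LPS larvae. The genes shown were named by the test of the difference or, for CANX, after its values were seen.

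The main Hsp70 of the endoplasmic reticulum, HSPA5 (BiP), named after its values were seen, had only the control part of this arrangement. It had 218, 178 and 149.9 CPM in 24 × 32 LPS and 164, 224 and 174 CPM in 24 × 24 LPS libraries, which overlap (log2 fold change -0.05, standard error 0.23, edgeR adjusted p = 0.937), and it fell in the controls (log2 fold change -1.0, edgeR adjusted p = 0.0133). Control levels were 113.8, 127.8 and 89.2 CPM at 24 × 32 and 189.9, 150.15 and 323.4 CPM at 24 × 24. The difference of HSPA5 was 0.95, near that of CANX, and did not pass the test (standard error 0.32, edgeR adjusted p = 0.509). Without 24 × 24 control replicate 3 it was 0.57. Of the 48 tested endoplasmic reticulum genes, 1 was up-regulated and none down-regulated in LPS larvae, against 1.62% and 1.48% of all genes tested. In controls 2 were up- and 13 down-regulated, against 3.01% and 3.2% of all genes tested. At an unadjusted p under 0.05, 21 had a positive and none a negative difference, against 4.54% and 3% of all genes. The other genes with the smallest p of the difference were si:ch211-266i6.3, of no annotated role here, and galnt10, which starts O-linked sugar chains. For si:ch211-266i6.3 the levels were 12.2, 18.1 and 27.8 CPM in 24 × 32 LPS and 10.9, 8.22 and 5.14 CPM in 24 × 24 LPS libraries, with 3.36, 4.61 and 2.40 CPM in 24 × 32 controls and 8.47, 11.5 and 9.87 CPM in 24 × 24 controls. It was the gene called in opposite directions (log2 fold change 1.18 in LPS larvae and -1.50 in controls), but its difference of 2.68 did not pass the test (standard error 0.45, edgeR adjusted p = 0.0546). That difference was called with no filter on low counts (edgeR adjusted p = 0.0138), on the 12 libraries of both warm shifts (edgeR adjusted p = 0.0292, DESeq2 adjusted p = 0.000827, and edgeR adjusted p = 0.0381 with a replicate block) and without 24 × 32 LPS replicate 1 (edgeR adjusted p = 0.0289). Its call in LPS larvae ended without 24 × 24 LPS replicate 2 or 3 or 24 × 32 LPS replicate 3, on the 6 LPS libraries alone (edgeR adjusted p = 0.074, DESeq2 adjusted p = 0.0524), and in an edgeR fit of 5 of them without 24 × 32 LPS replicate 2. The difference for galnt10 was 2.06 (standard error 0.39, edgeR adjusted p = 0.138).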

How the data were processed

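The authors deposited one table of raw, unnormalized counts for Ensembl genes. By the submitters' processing notes, reads were trimmed (cutadapt 1.12), mapped on the GRCz10 genome (TopHat2 2.1.0) and counted by HTSeq 0.6.1p1. The counting's strand option is not stated, so overlapping antisense genes cannot be told apart. Testing used edgeR 4.0.16 under R 4.3.3. Genes were filtered with filterByExpr (minimum count 10, minimum total 15), scaled by TMM and fitted by robust quasi-likelihood with 1 mean per group. All 18 libraries entered the filter, the scaling and the fit. The larvae incubated at 32 °C thus contributed to the choice of genes tested, the scaling and the estimate of the spread, but to no mean compared. Standard errors are the log2 fold change divided by the root of F. P-values were adjusted by Benjamini-Hochberg over all 15722 genes, and they measure only the spread between these pools, since separate broods are not stated for the libraries.

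The groups compared, the 41 gene lists (2196 gene IDs found, 167 entries not matched) and the alternatives were chosen with earlier results of these data known. Symbols were found for 26178 of 31624 genes, 724 of them from the study's supplementary tables. Named genes come from the 10 largest changes per direction (mean CPM 5 or more), up to 6 DEGs per list and the 5 smallest p of the difference. Genes named after their values were seen are marked. Not every gene of this rule is printed. Symbols in capitals are given as in the gene table. Alternatives were DESeq2 1.42.0 (size factors, or the whole test), no filter, a replicate block, thinned counts, only the libraries of a comparison, and each library left out. The procedure was tested on simulated data. Same-numbered LPS libraries did not deviate together (correlations of -0.003, 0.039 and 0.008), so libraries were not paired. No sequence was used here.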

Additional observations from a re-analysis of the deposited data

Results flagged for a closer look

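PDIA3 was called by the test of the difference between the warm shifts of LPS and control larvae, with a log2 difference of 1.07 (standard error 0.16, edgeR adjusted p = 0.0281). All 3 of the 24 × 32 LPS libraries were higher than the 24 × 24 LPS libraries and all 3 of the 24 × 32 controls were lower than the 24 × 24 controls. The call ended with counts thinned to the smallest library (edgeR adjusted p = 0.0627). With 1 library left out, it was kept only without 24 × 32 control replicate 1 or without 24 × 32 LPS replicate 1. With groups of 3 libraries, no search for single outlying libraries was made.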

How the results depend on the processing

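The count of DEGs in the LPS warm shift was 486. It was 215 to 586 without single libraries, and it stayed within 1.5 times under the other alternatives (355 with thinned counts, 432 with edgeR and 486 with DESeq2 on the 6 LPS libraries, 586 with DESeq2 on all 18). Without 24 × 32 LPS replicate 2 and with only the other 5 libraries fitted, an alternative chosen after seeing the data, it was 711, of which 348 were among the 486. Without the filter on low counts 497 genes were called and 42.9% of them were up-regulated, against 52.3% with it. The count of control DEGs was 976, and it was 646 with thinned counts, 1616 with edgeR on the 6 control libraries and 400 to 1118 without single libraries. The difference between the warm shifts called 1 gene, and it called 2 with no filter, 28 when DESeq2 fitted all 18, 21 when edgeR and 102 when DESeq2 fitted the 12 libraries alone, 0 with thinned counts and 0 to 2 without single libraries. Called list members ranged between 75 and 132 without single libraries. The log2 fold change of HSPA5, not called at -0.05, ranged between -0.20 and 0.10 without single libraries, positive without 24 × 24 LPS replicate 2 (0.10) or 24 × 32 LPS replicate 3 (0.07). The cause of these shifts was not tested. Same-numbered libraries of the 24 × 24 LPS and 24 × 32 LPS groups did not deviate together. Those of the 24 × 32 control and 24 × 32 LPS groups correlated at -0.032, 0.182 and 0.16. Those of the 32 × 24 LPS and control groups, used for the filter, the scaling and the spread but not compared, correlated at 0.559, 0.28 and 0.195. Under a replicate block the LPS warm shift had 548 DEGs on all 18 and 466 on 6 libraries, the control one 1477 on 6, and the difference 2 on all 18 and 29 on 12. The 24 × 32 libraries, at 1868228 to 2897261 counts, limit what can be detected at low levels.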

Other observations

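Digestive enzymes of the pancreas and gut had the highest median of all 41 lists in the LPS warm shift. Of 39 tested members 32 had a positive log2 fold change (median 0.76), 1 was up-regulated and none down-regulated. Their summed level was 5328, 9122 and 10042 CPM in the 24 × 32 LPS libraries and 2211, 3888 and 3816 CPM in the 24 × 24 LPS libraries, without overlap, and 11503, 6302 and 3766 CPM in 24 × 32 controls and 4472, 4090 and 5380 CPM in 24 × 24 controls, which overlap. The called gene, pla2g1b, a secreted phospholipase of the pancreas, had 16.9, 22.7 and 32.6 CPM in 24 × 32 LPS and 2.54, 3.60 and 4.11 CPM in 24 × 24 LPS libraries (log2 fold change 2.89, standard error 0.73, edgeR adjusted p = 0.043). Its call ended without each of the 6 libraries (edgeR adjusted p = 0.0597 to 0.179). Control levels of pla2g1b were 31.0, 14.2 and 7.19 CPM at 24 × 32 and 11.0, 7.90 and 13.6 CPM at 24 × 24, all above the 24 × 24 LPS libraries. The control log2 fold change was 0.71 and not called (edgeR adjusted p = 0.552). By the paper, LPS lowered this gene in 24 × 24 larvae. The difference between the warm shifts did not pass the test (2.19, edgeR adjusted p = 0.657). When only the 6 LPS libraries were fitted, edgeR called 9 members, DESeq2 17 and edgeR with a replicate block 21, so the number called depends on how the libraries were fitted.

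Liver secreted proteins had a positive log2 fold change in 61 of 75 tested members (median 0.38). None was called by edgeR, and other settings called 0 to 5. At an unadjusted p under 0.05 by edgeR, 5 of the 75 were positive and 2 negative, against 10.5% and 8.85% of all genes tested, so neither share exceeded that of all genes. Their sum was 6691, 12104 and 7373 CPM in 24 × 32 LPS and 4792, 7079 and 7921 CPM in 24 × 24 LPS libraries, which overlap, and replicate 2 was the highest.

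In controls 12 of 49 proteasome subunits and 8 of 39 cholesterol synthesis genes were down-regulated at 32 °C, against 3.2% of all genes tested. In LPS larvae edgeR called none of them, where 1.48% of all genes tested were down-regulated. PSMD1, a proteasome subunit, had 111, 122 and 114 CPM in 24 × 32 LPS and 112, 108 and 103 CPM in 24 × 24 LPS libraries (log2 fold change 0.10), against a log2 fold change of -0.60 in controls (edgeR adjusted p = 0.00311). The sterol regulator gene srebf2 had a log2 fold change of -0.31 in LPS larvae and of -0.77 in controls (edgeR adjusted p = 0.00624). At an unadjusted p under 0.05, 16 of 49 proteasome subunits, 17 of 100 cell cycle genes and 7 of 39 cholesterol genes had a positive difference and none a negative one, against 4.54% and 3% of all genes, and edgeR called none of them after adjustment.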
